A study of Mus musculus with 27 samples.

Results

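The immediate early transcription factors described here are 10 genes, Egr1, Egr2, Egr3, Fos, Fosb, Jun, Junb, Atf3, Nr4a1 and Myc, picked by gene symbol and all found among the 57683 features of the count files, of which 20031 are protein-coding genes. They were measured in hearts of inbred C57BL/6J mice by sequencing of polyadenylated RNA with 1 library per heart. The 7 E13.5 libraries are whole hearts of embryos of unknown sex, and the other 20 are ventricular apexes of adults. Transverse aortic constriction (TAC), which narrows the aortic arch with a ligature and so puts the left ventricle under pressure, had been in place for 4 weeks in 4 mice of 12 weeks of age (M1, M2 and M3, labelled male, and F1, labelled female). Sham surgery had been done on 4 mice of 12 weeks, and unoperated mice were taken at 16 weeks (n = 6) and at 6 weeks (n = 6), all labelled male.

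Library totals lay between 7543375 and 12646039 counts at E13.5, 10411417 and 11846819 in TAC hearts, 7958592 and 11561952 in sham hearts, 2164604 and 2642307 at 16 weeks and 2092270 and 2682955 at 6 weeks. The unoperated hearts were thus read at lower depth, and their labels also give another base quality encoding (phred64) than those of all other libraries (phred33). In each adult group 2 libraries went against their sex label by their Y-linked counts (TAC M3 and F1, sham 2 and 3, 16-week 1 and 6, 6-week 1 and 6). All 10 cardiomyocyte markers examined, among them Myh6, Tnnt2 and Ttn, were detected in every group, with a summed level of 25483 to 34562 CPM (counts scaled to a common library size) at E13.5 and 116356 to 188192 CPM over the adult groups. The constriction left its known trace: all 5 genes of a pressure overload check list (Nppa, Nppb, Acta1, Myh7 and Postn) were higher in TAC than in sham hearts, with Nppa, which encodes atrial natriuretic peptide, up by 3.77 on the log2 scale. In bulk tissue, fewer cells of a type and less RNA per cell cannot be told apart.

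Immediate early genes are switched on within minutes of a stimulus by transcription factors that are already present in the cell, without any new protein being made. Serum response factor (SRF) with its Ets-family partners at CArG boxes, and CREB at cyclic AMP response elements, are the best known of these switches. The products of immediate early genes include the zinc finger EGR factors, the bZIP factors of the FOS, JUN and ATF families that pair up as AP-1, the orphan nuclear receptor Nr4a1 and the growth regulator Myc, and they in turn set the later genes of the response. In heart muscle they are classically known as the first genes to respond to stretch, pressure load, catecholamines and handling of the tissue, and their messenger RNAs are short-lived.

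RefSeq promoter windows (build GRCm38.p6, 300 bases around each annotated start) matched 7 of the 10 genes and were searched on both strands for the elements known from these genes' regulation. The searched elements were the CArG box, the cyclic AMP response element TGACGTCA, the AP-1 site TGANTCA, the Ets core CCGGAA, the EGR site GCGNGGGCG, the E-box CACGTG and the TATA motif TATAAA. The windows of 3 of the 4 genes that were higher in TAC than in sham hearts are printed because each holds a searched element, shown in capitals: a CArG box in Egr2, an Ets core and, on the minus strand, an EGR site in Nr4a1, and a TATA motif in Junb.
Egr2 (chr10:67537619-67537918, plus strand): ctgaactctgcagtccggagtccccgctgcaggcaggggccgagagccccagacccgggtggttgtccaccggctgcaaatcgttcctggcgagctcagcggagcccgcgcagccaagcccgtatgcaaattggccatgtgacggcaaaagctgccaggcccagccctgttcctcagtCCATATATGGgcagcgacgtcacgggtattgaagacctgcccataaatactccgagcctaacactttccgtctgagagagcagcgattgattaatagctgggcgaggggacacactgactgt
Nr4a1 (chr15:101266596-101266895, plus strand): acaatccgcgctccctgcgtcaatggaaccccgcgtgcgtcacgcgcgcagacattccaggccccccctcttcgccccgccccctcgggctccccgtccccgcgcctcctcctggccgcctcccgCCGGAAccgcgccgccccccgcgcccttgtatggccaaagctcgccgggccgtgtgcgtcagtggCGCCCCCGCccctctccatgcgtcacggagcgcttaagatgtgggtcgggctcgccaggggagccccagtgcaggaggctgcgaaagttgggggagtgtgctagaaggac
Junb (chr8:84978699-84978998, minus strand): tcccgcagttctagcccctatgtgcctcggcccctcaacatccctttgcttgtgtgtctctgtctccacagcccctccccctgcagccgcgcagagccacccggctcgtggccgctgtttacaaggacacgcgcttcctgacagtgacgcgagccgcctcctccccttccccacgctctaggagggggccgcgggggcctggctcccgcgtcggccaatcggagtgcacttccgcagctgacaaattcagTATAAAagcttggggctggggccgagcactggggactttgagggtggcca
Egr2 has 5 annotated starts, and 4 of its 5 windows held a CArG box, although windows 3, 4 and 5 overlap and share the same one. In the printed window it lies at -72 to -63 from the start, and across all 32851 RefSeq windows 1.63% held a CArG box. The Ets core of Nr4a1 lies at -125 to -120 and its EGR site at -60 to -52, elements held by 14.9% and 5.55% of all windows. Window 2 of Egr2, which is not printed, held Ets cores beside its CArG box. They lie at -131 to -126, -129 to -124 and -48 to -43. An EGR site was also found in Fosb at -50 to -42. Fos held a TATA motif at -33 to -28, and Junb held one at 1 to 6, against 13.6% of all windows. An E-box, the element bound by Myc with its partner Max, was in 1 window of Egr2 and in 7.15% of all windows. No exact match to the cyclic AMP response element TGACGTCA or the AP-1 site TGANTCA was in any window of the 7 genes (1.79% and 7.81% of all windows). The windows of Atf3 and Jun held none of the 7 elements in the searched form. Variants of the elements were not searched, so a miss does not show that an element is absent. A match says only that these letters stand in the window.

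On the mouse build mm9, to which the files refer, the EGR genes lie at chr18:35020861-35024638 (Egr1, plus strand), chr10:66998223-67004936 (Egr2, plus strand) and chr14:70477252-70479964 (Egr3, plus strand). Of the AP-1 genes, Fos lies at chr12:86814840-86818223 on the plus strand, and Fosb (chr7:19888070-19895394), Jun (chr4:94715725-94718913), Junb (chr8:87501294-87502328) and Atf3 (chr1:192994175-193007219) lie on the minus strand. Nr4a1 (chr15:101097284-101105223) and Myc (chr15:61816946-61821929) are both on the plus strand of chromosome 15. All exonic bases of 8 of the genes belong to no other feature of the files. Egr3 has 48.0% of its exonic bases to itself, since a NONCODE transcript on the same strand (n288959) overlaps it, and Fosb has 69.9%, so part of the reads of these genes may not have been counted for them.

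The 10 genes differed widely in level. Per kilobase of exonic sequence of its own, Egr1 had the highest mean of the 10 in TAC hearts, at 105 CPM per kb, followed by Junb (55.4), Jun (51.7) and Nr4a1 (45.9 CPM per kb). That mean owed much to M2, with 272 CPM per kb of Egr1 and 49.4 of Jun. Egr1 was also above Jun in M1 (70.7 against 54.9), but below it in M3 (33.5 against 56.0) and F1 (43.6 against 46.5). Jun had the highest mean in each of the other groups, with 30.8 CPM per kb at E13.5, 30.8 in sham hearts, 36.4 at 16 weeks and 26.96 at 6 weeks. Egr1 was above Jun in sham 3 (29.1 against 20.3) and in 16-week heart 6 (80.2 against 58.6). Myc, a driver of ribosome making and cell growth, was second at E13.5 with 14.5 CPM per kb, next to Egr1 with 14.3, but had only 6.02 CPM per kb in TAC and 3.62 in sham hearts. Egr2 and Egr3 were scarce outside TAC hearts, with group means of 0.287 to 2.07 CPM per kb, and Fosb was scarce in every group (0.221 to 1.09 CPM per kb).

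Across the 5 groups, 9 of the 10 genes had their highest mean level in TAC hearts, and Myc had it at E13.5. For Fos and Fosb this rested on M2. Without M2 their TAC means were 13.9 and 1.69 CPM, below the sham means of 15.03 and 2.11 CPM. In the order of group means, TAC stood clear of the next group, with no overlap of libraries, for Egr1 (next sham) and Egr2 (next E13.5), and E13.5 stood clear of TAC for Myc. Egr1 in 16-week heart 6 (248 CPM) was still above TAC M1, M3 and F1 (219, 104 and 135 CPM). TAC lay clear above sham for 22.1% of all tested features, and the share for the other steps was not counted. Atf3 was ordered TAC, E13.5, sham, 16 weeks and 6 weeks, and the step between E13.5 and sham was the one without overlap. For Egr1 the order went on with sham, 16 weeks, E13.5 and 6 weeks, the last step also without overlap, for Egr2 with E13.5, 6 weeks, 16 weeks and sham, and for Myc with TAC, sham, 16 weeks and 6 weeks. Jun and Nr4a1 had the order TAC, 16 weeks, E13.5, sham and 6 weeks, and Junb had TAC, 16 weeks, sham, 6 weeks and E13.5, with overlap at every step. Neighbouring groups also overlapped everywhere in the order of Egr3 (TAC, 6 weeks, 16 weeks, E13.5, sham), Fos (TAC, sham, 16 weeks, E13.5, 6 weeks) and Fosb (TAC, sham, E13.5, 16 weeks, 6 weeks).

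**Figure D1:**
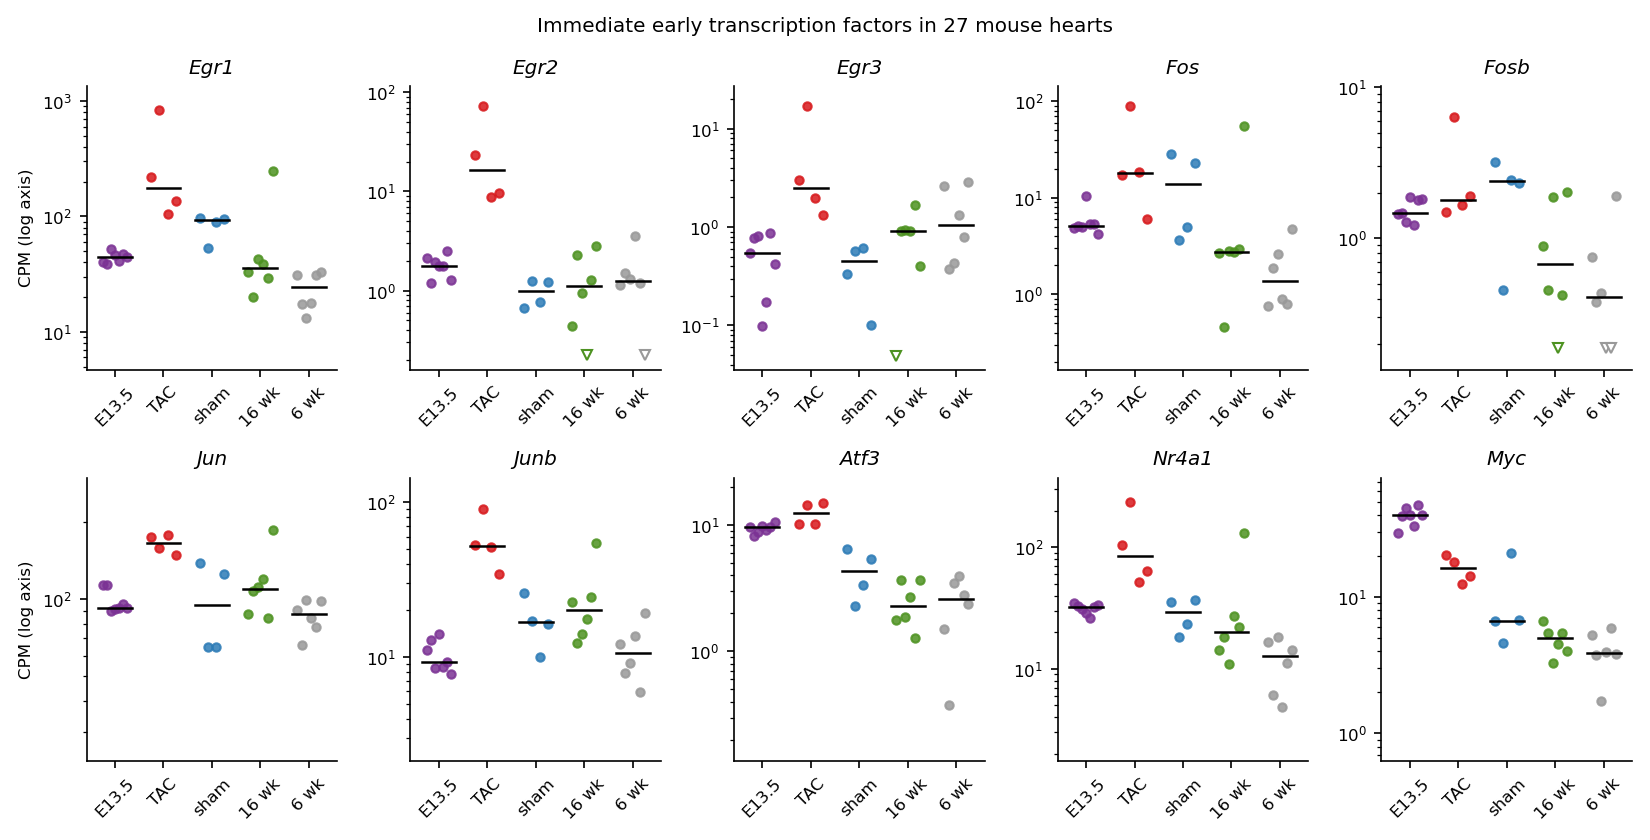
CPM of each of the 10 factors in the 27 hearts on a log axis, 1 panel per gene, with E13.5, TAC, sham, 16-week and 6-week hearts from left to right; each point is 1 heart, lines are group medians and open triangles mark libraries with 0 counts. Single hearts stand above their group in TAC (M2, 842 CPM of Egr1) and at 16 weeks (heart 6, 248 CPM of Egr1), while the E13.5 hearts lie close together for Egr1, Jun, Atf3 and Nr4a1.

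Under pressure overload, Egr2, Junb, Atf3 and Nr4a1 were higher in TAC than in sham hearts, by 26.3-fold, 3.05-fold, 2.61-fold and 3.67-fold, and no factor was lower. These 4 of 10 genes passed edgeR's quasi-likelihood test at a Benjamini-Hochberg adjusted p under 0.05, a rule that 38.0% of all 14555 tested features passed (19.6% higher and 18.4% lower in TAC hearts). For 7 of the 10, Egr1, Egr2, Egr3, Jun, Junb, Atf3 and Nr4a1, every TAC heart lay above every sham heart, which held for 22.1% of all tested features. Egr3, with 1 to 5 counts per sham heart, passed the filter on low counts (minimum count 10) only through its TAC hearts. Egr2, with 5 to 12 counts per sham heart, needed TAC hearts to pass it. The filter thus favoured a lack of overlap in these genes, which is no separate support. The median log2 fold change of the 10 was 1.496, beside 0.00047 over all tested features. The call of Atf3 was kept in each of the 8 fits that left out 1 heart, whereas the number of called factors ran from 1 (without sham 4) to 5 (without M2 or F1).

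Egr2, a zinc finger factor best known for hindbrain patterning and myelination, showed the widest gap. It had 23.3 CPM in TAC M1, 72.1 in M2, 8.76 in M3 and 9.58 in F1, against 0.666, 1.26, 0.761 and 1.22 CPM in sham hearts 1 to 4. The lowest TAC heart thus lay well above the highest sham heart, and the values rest on 79 to 646 counts per TAC heart and 5 to 12 counts per sham heart. The log2 fold change was 4.72 ± 1.09 (SE, n = 4 each), with an adjusted p of 0.0166 by edgeR's quasi-likelihood test. The call was lost, at adjusted p 0.0510 and 0.0511, without sham 1 or sham 4, where Egr2 was 4.56 and 4.85 on the log2 scale.

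Egr1, the founding EGR factor and a classic sensor of growth factors and stretch, had 219 CPM in M1, 842 in M2, 104 in M3 and 135 in F1, against 96.9, 53.5, 90.2 and 94.4 CPM in sham hearts 1 to 4. Every TAC heart was above every sham heart, M3 by a small margin, and M2 lay far above the other TAC hearts. The TAC mean was 325 ± 348 CPM, or 153 ± 59.7 CPM without M2, against 83.8 ± 20.3 CPM in sham hearts (SD). With that spread the log2 fold change of 1.85 ± 0.75 (SE, n = 4 each) did not pass edgeR's test (adjusted p 0.103). Without M2 it was 0.78.

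Egr3, the third zinc finger factor of the group, known from muscle spindles and lymphocytes, had 3.002, 17.0, 1.996 and 1.32 CPM in TAC M1, M2, M3 and F1, against 0.333, 0.573, 0.609 and 0.101 CPM in sham hearts 1 to 4. These are 11 to 152 counts per TAC heart and 1 to 5 counts per sham heart, and the groups did not overlap. Egr3 passed the filter on low counts only through its TAC hearts, so this lack of overlap is no separate support. Its log2 fold change of 3.78 ± 1.29 (SE, n = 4 each) had an adjusted p of 0.0600 by edgeR's test, and it was called without M2 (2.33, adjusted p 0.00158) or without F1 (4.11, adjusted p 0.0403). The NONCODE transcript that overlaps Egr3 had 11.3 CPM in M2, 1.11 to 1.85 CPM in the other TAC hearts and 0.222 to 1.22 CPM in sham hearts, and reads of the overlap, which is on the same strand, cannot be assigned to either.

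Among the AP-1 subunits, Junb and Atf3 were higher in TAC than in sham hearts. Junb, a JUN-family subunit often found with Fos and Fosb, had 53.2, 90.2, 51.7 and 34.4 CPM in TAC M1, M2, M3 and F1, against 25.7, 17.2, 10.04 and 16.3 CPM in sham hearts 1 to 4. The groups did not overlap, with a log2 fold change of 1.61 ± 0.38 (SE, n = 4 each; adjusted p 0.0170 by edgeR), and the call was lost without sham 4 (1.57, adjusted p 0.0521). Atf3, a stress-induced bZIP factor that acts mostly as a repressor, had 10.3, 14.4, 10.2 and 14.8 CPM in TAC M1, M2, M3 and F1, against 6.44, 2.29, 3.35 and 5.37 CPM in sham hearts 1 to 4. Here M2 did not stand apart from the other TAC hearts, and the log2 fold change was 1.38 ± 0.26 (SE, n = 4 each; adjusted p 0.00118 by edgeR).

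Jun, the most abundant of the 10 factors in sham hearts by group mean per kilobase, had 175, 158, 179 and 148 CPM in TAC M1, M2, M3 and F1, against 138, 64.7, 64.8 and 125 CPM in sham hearts 1 to 4. The TAC hearts lay close together and above all sham hearts, while sham 2 and 3 formed a low pair and sham 1 and 4 a high pair. The log2 fold change of 0.64 ± 0.28 (SE, n = 4 each) did not pass edgeR's test (adjusted p 0.121). Sham 2 and sham 3, the low pair, were also the sham hearts whose Y-linked counts went against their label.

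Fos and Fosb, the partners of the JUN proteins in the classic AP-1 dimer, did not follow the pattern of Egr2 or Atf3. Fos had 17.3, 90.1, 18.5 and 5.99 CPM in TAC M1, M2, M3 and F1, against 28.4, 3.67, 5.02 and 23.0 CPM in sham hearts 1 to 4. The groups overlapped throughout, with sham 1 and sham 4 above 3 of the 4 TAC hearts, and the log2 fold change was 0.995 ± 1.01 (SE, n = 4 each; adjusted p 0.485 by edgeR) and -0.22 without M2. Fosb had 1.501, 6.36, 1.66 and 1.92 CPM in TAC M1, M2, M3 and F1, against 3.22, 0.459, 2.44 and 2.33 CPM in sham hearts 1 to 4. Apart from M2, every TAC heart was below 3 of the 4 sham hearts, and the log2 fold change was 0.34 ± 0.63 (SE, n = 4 each; adjusted p 0.703 by edgeR) and -0.40 without M2.

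Nr4a1, an orphan nuclear receptor with roles in metabolism, inflammation and cell death, had 104, 234, 51.7 and 63.3 CPM in TAC M1, M2, M3 and F1, against 35.2, 18.2, 23.3 and 37.1 CPM in sham hearts 1 to 4. The groups did not overlap, and the log2 fold change was 1.88 ± 0.57 (SE, n = 4 each; adjusted p 0.0438 by edgeR's quasi-likelihood test). This call was the least firm of the 4: it was lost without any 1 of the 4 sham hearts or without M1, at log2 fold changes of 1.70 to 2.04 and adjusted p of 0.0805 to 0.101, and when features with low counts were kept in the fit (adjusted p 0.0769). Myc had 20.3, 18.3, 12.5 and 14.2 CPM in TAC M1, M2, M3 and F1, against 6.66, 4.59, 21.3 and 6.79 CPM in sham hearts 1 to 4. Sham 3 alone exceeded every TAC heart, and the log2 fold change was 0.69 ± 0.49 (SE, n = 4 each; adjusted p 0.324 by edgeR), but 1.34 without sham 3 (adjusted p 0.000201).

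Leaving out the 4 operated libraries that went against their sex label left 2 hearts per group, M1 and M2 against sham 1 and 4. Egr2, Junb and Nr4a1 then kept log2 fold changes of 5.52, 1.67 and 2.12 but not their calls (adjusted p 0.0994, 0.0767 and 0.127), Atf3 stayed called, and Jun (0.24, adjusted p 0.0433) and Myc (1.41, adjusted p 3.31e-05) were called higher in TAC hearts by edgeR's test.

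**Figure D2:**
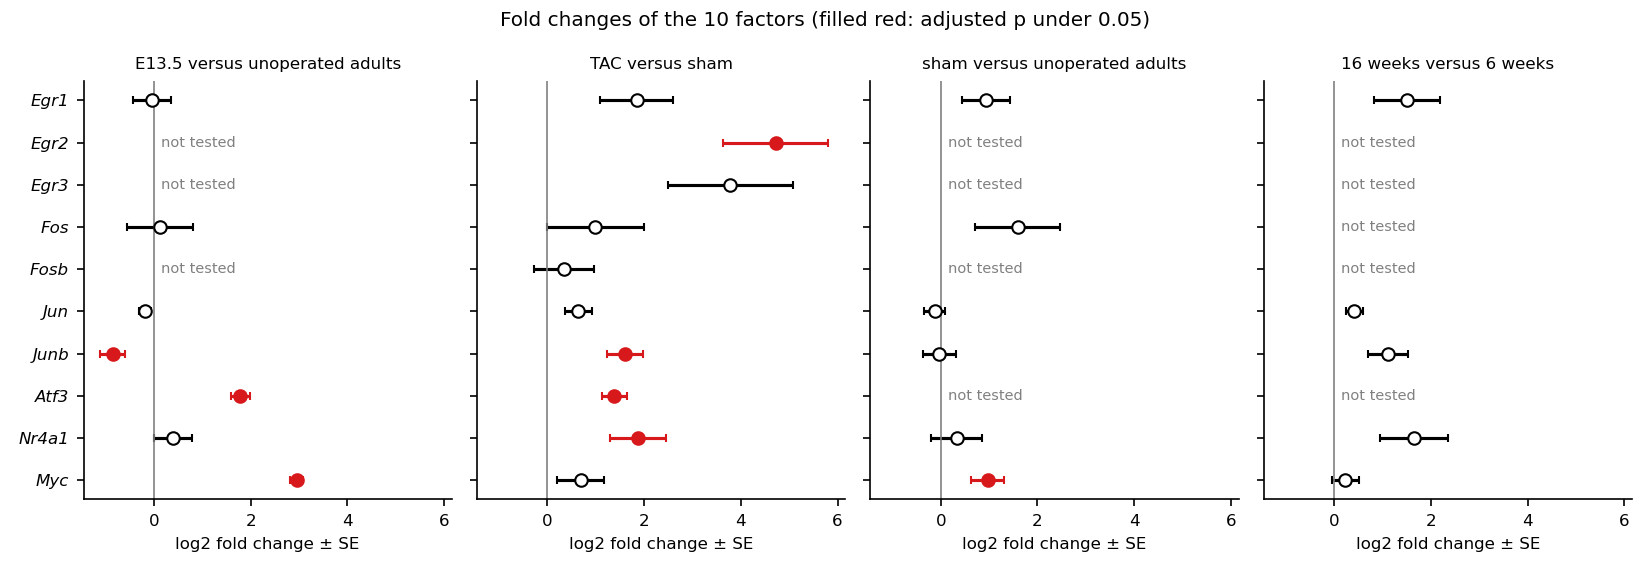
Log2 fold change ± SE of each factor in E13.5 against unoperated hearts, TAC against sham, sham against unoperated and 16 weeks against 6 weeks, 1 panel each; filled red points passed edgeR's quasi-likelihood test at adjusted p under 0.05, open points did not, and genes removed by the filter on low counts are marked as not tested. The 4 filled points of the TAC panel lie between 1.38 (Atf3) and 4.72 (Egr2), and the age panel has none.

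Relatives of these factors were also higher under pressure overload. Of 9 tested paralogs, 5 were higher in TAC than in sham hearts and none was lower, with a median log2 fold change of 0.62, and the same 5 were called without M2. Nr4a3, a close relative of Nr4a1, had 17.2, 16.6, 23.0 and 19.4 CPM in TAC M1, M2, M3 and F1, against 3.77, 2.52, 6.39 and 3.45 CPM in sham hearts 1 to 4. The 4 TAC hearts thus lay within a narrow band far above the sham hearts, at a log2 fold change of 2.18 ± 0.21 (SE, n = 4 each; adjusted p 5.15e-06 by edgeR). Jund (0.63 ± 0.09, adjusted p 0.000112), Mafk (0.68, adjusted p 0.000123) and Fosl2 (0.71, adjusted p 0.00105) were also higher by edgeR's test, whereas Nr4a2 (0.29, adjusted p 0.479) and Mycn (-0.54, adjusted p 0.270) did not pass it.

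The make-up of the AP-1 messenger pool, per kilobase of exonic sequence, shifted accordingly. The 8 subunits summed to 234 CPM per kb in TAC hearts, against 119 in sham hearts. Junb made up 23.0% of that sum in TAC hearts (17.9 to 29.8%) and 13.9% in sham hearts (9.86 to 17.2%), without overlap. Jund, the subunit that is present at all times in most cells, was the largest part in both, with 35.3% in TAC and 41.3% in sham hearts, followed by Jun with 22.6% and 25.1% in the same order. Fos held 5.29% in TAC hearts and 4.82% in sham hearts, and Atf3 2.76% and 1.78%. Among the EGR factors Egr1 dominated, with 86.9% of the family's CPM per kb in TAC hearts and 96.5% in sham hearts, and Egr2 held 6.87% in TAC hearts against 1.13% in sham hearts.

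**Figure D3:**
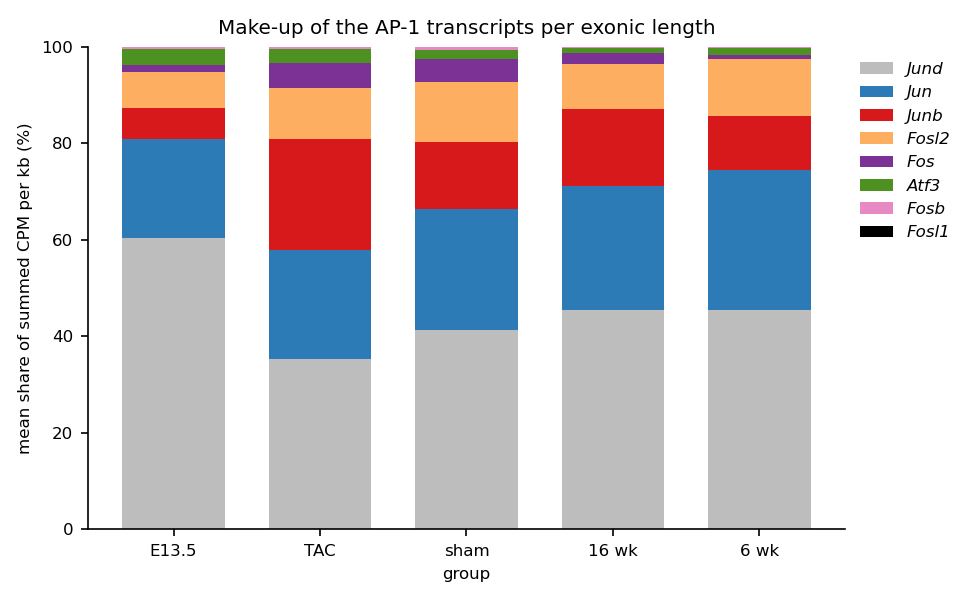
Mean share of each of 8 AP-1 subunits in their summed CPM per kilobase (percent), 1 stacked bar for each of the E13.5, TAC, sham, 16-week and 6-week groups. Jund is the largest part of every bar, from 60.5% at E13.5 to 35.3% in TAC hearts, and the share of Junb runs from 6.56% at E13.5 to 23.0% in TAC hearts.

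Of 42 other immediate early genes tested, 15 were higher in TAC than in sham hearts and none was lower, where 19.6% of all tested features were higher and 18.4% lower. Their median log2 fold change was 0.47, and 14 were higher without M2, 12 of them shared. The most firmly called were Klf4 (0.65, adjusted p 0.000106), a zinc finger factor, Hbegf (0.68, adjusted p 0.000193), a growth factor of cardiomyocytes and vessels, Gadd45g (0.94, adjusted p 0.000400), a stress-response gene, and Sik1 (1.01, adjusted p 0.000760), a kinase, all by edgeR's test. Ier2 (0.99, adjusted p 0.0506), the phosphatase Dusp1 (-0.36, adjusted p 0.556) and the growth inhibitor Btg2 (0.29, adjusted p 0.643) did not pass. Dusp1 had 129, 253, 96.4 and 105 CPM in TAC M1, M2, M3 and F1, against 229, 101, 134 and 229 CPM in sham hearts 1 to 4, so its high hearts were M2 and sham 1 and 4, as for Fos. Zfp36 is listed at 0 in all 27 libraries, and 0 of its 1792 exonic bases lie outside other features.

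The upstream activators and kinases split evenly, with 8 of 24 higher and 8 lower in TAC hearts. Srf, the factor that binds CArG boxes, was higher by 0.45 (adjusted p 0.000282) and the MAP kinase kinase Map2k2 by 0.50 (adjusted p 0.000104), while the MAP kinase Mapk14 (-0.38, adjusted p 0.000294) was lower by edgeR's test. Of 9 corepressors and Myc partners none was higher, and Mga (-0.59) and Max (-0.33) were lower. The EGR corepressor Nab2 had 0.31 (adjusted p 0.05001, just short of the call). Of 14 reported target genes of AP-1, EGR and ATF3 factors, 7 were higher, among them the stress cytokine Gdf15 (3.26), the matrix protein Thbs1 (3.60) and Tgfb1 (0.52), and the coagulation starter F3 was lower (-0.64). Of 14 reported Myc targets, 6 were higher and none lower, with small changes for Ccnd2 (0.75), Nop58 (0.63), Ldha (0.31) and Cad (0.28). Of 13 heat shock genes, 8 were higher, led by Hsp90aa1, Hspa4, Hspb1 and Hsph1.

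Markers of other cell types moved in the same comparison, and their part in the result was not tested. Fibroblast markers summed to 2747 to 5333 CPM in TAC hearts and 1251 to 1406 CPM in sham hearts, with 7 of 10 higher, and macrophage markers to 790 to 1119 CPM in TAC hearts and 554 to 617 CPM in sham hearts, with 6 of 11 tested higher. M2, the TAC heart with the highest Egr1, Egr2, Egr3, Fos, Fosb, Junb and Nr4a1, had the lowest fibroblast sum of the 4 TAC hearts, and M3 the highest. Smooth muscle markers summed to 8245 to 9434 CPM in TAC hearts and 4769 to 5098 CPM in sham hearts. Of these 7 markers 2 were higher and 5 did not pass, at a median log2 fold change of 0.02. Most of them thus did not share the gap in the sum. Neutrophil markers summed to 8.02 to 11.7 CPM in TAC hearts and 2.33 to 4.87 CPM in sham hearts, with Ly6g and Elane at 0 in both groups.

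In the embryonic heart, Myc and Atf3 were higher and Junb was lower than in unoperated adults. These were 3 of the 7 factors that passed the filter on low counts, in a comparison where 83.8% of all 12766 tested features passed edgeR's test, 44.1% with a higher and 39.7% with a lower level in embryos. Egr2, Egr3 and Fosb were too low to be tested. The share called among the factors was below that of all features. Myc and Atf3 were the 2 of the 7 with every embryo above every unoperated adult, which held for 33.6% of all tested features. Atf3, with 1 to 9 counts per unoperated heart, needed the embryos to pass the filter on low counts. The filter thus favoured a lack of overlap in Atf3, which is no separate support.

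Myc had a lowest, median and highest level of 29.7, 39.9 and 47.3 CPM in E13.5 hearts, against 3.30, 5.001 and 6.67 CPM at 16 weeks and 1.74, 3.89 and 5.94 CPM at 6 weeks. No adult heart came near the embryonic range, and the log2 fold change was 2.96 ± 0.13 (SE, n = 7 against 12), or 7.77-fold, with an adjusted p of 1.03e-18 by edgeR's quasi-likelihood test. Its paralog Mycn, the MYC gene of the embryo's dividing tissues, was higher by 3.33 ± 0.18 (SE; adjusted p 2.18e-15 by edgeR). Per kilobase Myc held 47.8% of the family's sum at E13.5 and Mycn 50.5%, close to the 49.8% and 48.1% of 6-week hearts. At 16 weeks Myc held 59.9% and Mycn 37.3%. The family's sum was 30.2 CPM per kb at E13.5, 3.09 at 16 weeks and 3.12 at 6 weeks.

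Atf3 had 8.17, 9.61 and 10.51 CPM at its lowest, median and highest in E13.5 hearts, against 1.27, 2.30 and 3.67 CPM at 16 weeks and 0.378, 2.58 and 3.97 CPM at 6 weeks. The groups were clearly apart, at 1.79 ± 0.19 on the log2 scale (SE; 3.45-fold, adjusted p 7.04e-10 by edgeR). Since Atf3 needed the embryos to pass the filter on low counts, this gap is no separate support. Junb had 7.83, 9.25 and 14.0 CPM in E13.5 hearts, against 12.4, 20.1 and 54.6 CPM at 16 weeks and 5.94, 10.6 and 19.1 CPM at 6 weeks. The embryonic range overlapped that of both adult ages, and Junb was lower at E13.5 by -0.85 ± 0.26 on the log2 scale (SE; adjusted p 0.00577 by edgeR), a call that was lost when only 6-week hearts were the comparison (-0.30, adjusted p 0.236) and when features with low counts were kept (-0.67, adjusted p 0.0528).

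For Egr1, Nr4a1 and Fos the answer turned on the adult libraries. Egr1 had 38.5, 44.5 and 52.5 CPM at its lowest, median and highest in E13.5 hearts, against 20.2, 35.6 and 248 CPM at 16 weeks and 13.1, 24.2 and 33.0 CPM at 6 weeks. Nr4a1 had 26.1, 32.0 and 34.6 CPM in E13.5 hearts, against 10.8, 20.2 and 131 CPM at 16 weeks and 4.85, 12.7 and 18.3 CPM at 6 weeks. Fos had 4.23, 5.07 and 10.4 CPM in E13.5 hearts, against 0.459, 2.77 and 55.8 CPM at 16 weeks and 0.755, 1.38 and 4.78 CPM at 6 weeks. For all 3 genes 1 adult heart, heart 6 of the 16-week group, lay far above the embryos while most adults lay below them.

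With that heart included, Egr1 (-0.04, adjusted p 0.936), Nr4a1 (0.40, adjusted p 0.347) and Fos (0.12, adjusted p 0.869) did not pass edgeR's test. Without it all 3 were higher at E13.5, by 0.51 (adjusted p 0.00311), 0.91 (adjusted p 1.86e-05) and 1.27 (adjusted p 0.000189), and 6 factors were called in all. The same 6 calls came without the 4 unoperated libraries that went against their sex label, of which this heart is 1. Fos, with 1 to 10 counts in each other unoperated heart, needed the embryos to pass the filter on low counts. The filter thus favoured a higher level of Fos at E13.5 in these fits. Jun was at 89.7, 92.1 and 114 CPM in E13.5 hearts, against 84.5, 110 and 187 CPM at 16 weeks and 66.1, 87.2 and 99.0 CPM at 6 weeks, and did not pass (-0.18, adjusted p 0.154).

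Sham hearts as the adult side, read at a depth like that of the embryos, gave another picture. Of 9 tested factors, 6 were called, a share that was 76.3% over 18677 tested features (40.7% with higher and 35.6% with lower levels in embryos). Myc (1.88 ± 0.35, adjusted p 0.000692) and Atf3 (0.90 ± 0.20, adjusted p 0.000347) were again higher at E13.5 without overlap, and Egr2 was higher by 0.67 (adjusted p 0.0409) with overlap. Egr2 had 14 to 35 counts per embryo and 5 to 12 per sham heart, and needed the embryos to pass the filter on low counts. The filter thus favoured its call. Egr1 was lower at E13.5 (-1.10 ± 0.14, adjusted p 5.52e-06 by edgeR), with every embryo below every sham heart, and Fos (-1.61, adjusted p 0.0185) and Junb (-0.96, adjusted p 0.00147) were lower with overlap. The share of all tested features without overlap was not counted for this comparison, so the lack of overlap has no background here.

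Around the factors, the embryonic hearts differed in most genes. Of 14 tested Myc targets, 13 were higher at E13.5 and 1 was lower, with a median log2 fold change of 1.27 beside 0.07 over all tested features. Among them were the cell cycle kinase Cdk4 (2.38), the nucleotide synthesis enzyme Cad (1.69), the ribosome assembly factor Nop58 (1.96) and the polyamine enzyme Srm (1.68). Of 43 other immediate early genes, 17 were higher and 20 lower. Plk2 (1.51) and Dusp2 (3.12) were higher, while Cyr61 (-1.20), Mcl1 (-1.27) and Dusp1 (-2.10, adjusted p 8.94e-07 by edgeR) were lower. The paralogs Nr4a2 (1.65) and Jund (0.66) were higher and Mafk (-1.24) and Fosl2 (-0.26) lower, and Jund made up 60.5% of the AP-1 sum at E13.5, 45.4% at 16 weeks and 45.5% at 6 weeks. Of 24 upstream genes 9 were higher and 8 lower, and Nab2 was higher by 1.21 (adjusted p 3.60e-12 by edgeR) among 9 corepressors and Myc partners with 5 higher and 3 lower. The AP-1, EGR and ATF3 targets (5 higher and 5 lower of 11) and the heat shock genes (5 higher and 3 lower of 11) split.

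The cell make-up of the samples moved too, and its part in these results was not tested. The markers of dividing cells summed to 635 to 775 CPM in E13.5 hearts and 1.35 to 14.7 CPM in unoperated hearts, with 5 of 5 tested higher. The erythroid markers summed to 11235 to 42390 CPM in E13.5 hearts and 29.1 to 83.4 CPM in unoperated hearts, with 6 of 6 tested higher. Epicardial markers summed to 262 to 354 CPM in E13.5 hearts and 10.7 to 24.5 CPM in unoperated hearts (6 of 6 higher), and atrial markers to 2827 to 3803 CPM in whole E13.5 hearts and 254 to 1466 CPM in unoperated apexes (5 of 7 tested higher and 1 lower). Macrophage markers summed to 165 to 218 CPM in E13.5 hearts and 354 to 528 CPM in unoperated hearts (10 of 10 tested lower), and all 10 cardiomyocyte markers were lower at E13.5. The embryo with the highest erythroid sum, E13.5 heart 4, was also the one with the highest Fos.

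Between 16 and 6 weeks of age, no factor passed edgeR's test among the 5 that could be tested, in a comparison where 2.51% of 10394 features did (1.32% higher and 1.19% lower at 16 weeks). At an unadjusted p under 0.05 there were 3, and DESeq2 and limma-voom also called 0. The log2 fold changes were 1.51 ± 0.68 for Egr1 (adjusted p 0.297), 1.65 ± 0.70 for Nr4a1 (adjusted p 0.272), 1.12 ± 0.41 for Junb (adjusted p 0.195), 0.42 ± 0.18 for Jun (adjusted p 0.257) and 0.23 ± 0.28 for Myc (adjusted p 0.731; SE, n = 6 each, edgeR). The size of these values rested on 16-week heart 6, without which they were 0.42 for Egr1, 0.62 for Nr4a1, 0.69 for Junb and 0.23 for Jun. Among the lists, 2 of 38 other immediate early genes were higher at 16 weeks, Ppp1r15a (0.65, adjusted p 0.00459), a regulator of translation under stress, and Zfp36l1 (0.71, adjusted p 0.0121), an RNA decay factor. Elk1, an Ets-family partner of SRF, was lower (-0.78, adjusted p 0.00916) as 1 of 23 upstream genes, Hspb1 was higher (0.43, adjusted p 0.0244) as 1 of 10 heat shock genes, and Nab2 was higher (0.66, adjusted p 0.0330, not called without 16-week heart 6). Fibroblast markers summed to 1313 to 1590 CPM at 16 weeks and 1416 to 2453 CPM at 6 weeks, with 3 of 10 lower. None of 5 paralogs, 9 AP-1, EGR and ATF3 targets or 12 Myc targets passed edgeR's test.

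Sham hearts differed from unoperated hearts in 1 of 6 tested factors, Myc (0.98 ± 0.34, SE, n = 4 against 12, adjusted p 0.0368 by edgeR), where 31.9% of 11171 features passed (15.2% higher and 16.7% lower in sham hearts). Operation, age, base quality encoding and depth differ together between these groups and cannot be told apart. The Myc difference rested on sham 3, at 21.3 CPM, with the other sham hearts at 4.59 to 6.79 CPM and unoperated hearts at 1.74 to 6.67 CPM, and was 0.32 without it (adjusted p 0.300). The call was also lost, at 0.91 to 0.97 and adjusted p of 0.0516 to 0.0605, without 6-week heart 2, 3, 4 or 6 or 16-week heart 3, 4 or 6. Fos (1.59 ± 0.88, adjusted p 0.190) and Egr1 (0.94 ± 0.50, adjusted p 0.179) did not pass, but without 16-week heart 6 both did (2.74, adjusted p 0.00371, and 1.48, adjusted p 0.000131), as did Nr4a1 (0.84, adjusted p 0.0247). Fos, with 1 to 10 counts in each other unoperated heart, then needed sham hearts to pass the filter on low counts, which favoured its call. Without the 6 libraries of these groups that went against their sex label, 5 factors were called, Jun among them (0.39, adjusted p 0.0229), and Myc was not (0.53, adjusted p 0.159). Jun (-0.13, adjusted p 0.706), Junb (-0.03, adjusted p 0.964) and Nr4a1 (0.33, adjusted p 0.671) did not pass with all libraries.

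In the lists, 7 of 41 other immediate early genes were higher and 2 lower in sham than in unoperated hearts, or 13 higher and 2 lower without 16-week heart 6. Arc, a gene known from neurons, was higher by 3.77 ± 0.18 (SE; adjusted p 1.86e-12 by edgeR), Nfkbia by 0.47, and Zfp36l1 (-0.92) and Ier5l (-0.94) were lower. The paralogs Jdp2 (0.78), Maff (0.56) and Mafk (0.35) were the 3 higher ones of 6. Upstream genes split (5 higher and 5 lower of 24), as did corepressors and Myc partners, with Max higher (0.65) and Mxi1 lower (-0.29). The AP-1, EGR and ATF3 targets had 5 higher and 1 lower of 10, the Myc targets 4 higher and 2 lower of 12, and the heat shock genes 3 higher of 10. Macrophage markers summed to 554 to 617 CPM in sham hearts and 354 to 528 CPM in unoperated hearts (5 of 10 tested higher), and fibroblast markers to 1251 to 1406 CPM in sham hearts and 1313 to 2453 CPM in unoperated hearts (5 of 10 lower), and their part in these results was not tested.

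Several factors varied more between hearts of 1 group than most features did. In TAC hearts the within-group SD of log2 CPM was 1.599 for Fos, 1.57 for Egr3, 1.41 for Egr2, 1.34 for Egr1 and 0.97 for Nr4a1, against a median of 0.13 over 10231 features, and all 5 lay above the 99th percentile of those features. Jun (0.13, percentile 46.3) and Atf3 (0.29, percentile 90.8) were steadier there. In sham hearts Fos had 1.48 and Myc 0.95, and at 16 weeks Fos had 2.13, Egr1 1.27 and Nr4a1 1.27, where the median feature had 0.13 and 0.22. Only factors with a group mean of at least 5 CPM are given here. Egr3 in TAC hearts reached that mean only through M2 (2.10 CPM without it), and Fos at 16 weeks only through heart 6 (2.32 CPM without it). The spread of these 2 is therefore partly a result of the selection. The embryonic hearts were the even ones: Egr1 (0.15, percentile 50.0), Jun (0.15, percentile 48.6), Nr4a1 (0.14, percentile 41.9) and Atf3 (0.12, percentile 28.9) varied like the median feature (0.15 over 10687), and Fos (0.41, percentile 96.9) and Junb (0.32, percentile 93.5) varied more.

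The factors deviated together in single hearts. As a mean over the 10 genes, 16-week heart 6 lay 1.39 above its group mean in log2 CPM, with 8 of 10 factors above it, and TAC M2 lay 1.19 above, with 9 of 10. The lowest hearts were TAC F1 (-0.64, 1 of 10 above), sham 2 (-0.55, 3 of 10), 16-week heart 4 (-0.52, 4 of 10) and TAC M3 (-0.51, 1 of 10), and the embryos stayed between -0.22 and 0.17. Since each group mean includes the high heart, M2 and 16-week heart 6 by themselves lower the deviations of the other hearts of their groups. In 16-week heart 4 the value came mostly from Egr2 (-2.78) and Fosb (-2.44), both at 0 counts. A mean over 44 other immediate early genes was also highest in 16-week heart 6, at 0.43 with 33 of 44 genes above, and TAC M2 had 0.21 with 30 of 44. The heat shock genes did not share this order, with 0.03 in 16-week heart 6, -0.11 in M2 and 0.57 in M3. The total of 16-week heart 6 was 2642307 counts, the highest of its group, and that of M2 was 11846819, the highest of the TAC hearts. Cardiomyocyte, fibroblast, macrophage, erythroid and dividing cell marker sums were highest of the group in 16-week heart 6, at 140158, 1590, 448, 83.4 and 4.45 CPM. Several of these leads were small. The cardiomyocyte, fibroblast and macrophage sums were 139170, 1555 and 413 CPM in 16-week heart 4, and the dividing cell sum was 4.13 CPM in 16-week heart 2. Neutrophil, lymphocyte and nerve sums were the lowest of the group in heart 6 (2.02, 0 and 17.8 CPM). The neutrophil, lymphocyte and dividing cell sums were at most 7.80 CPM in any 16-week heart, near the floor, so their ranks carry little weight. Its endothelial, smooth muscle, atrial and epicardial sums lay between those of other hearts. The part of cell make-up in its high factors was not tested.

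**Figure D4:**
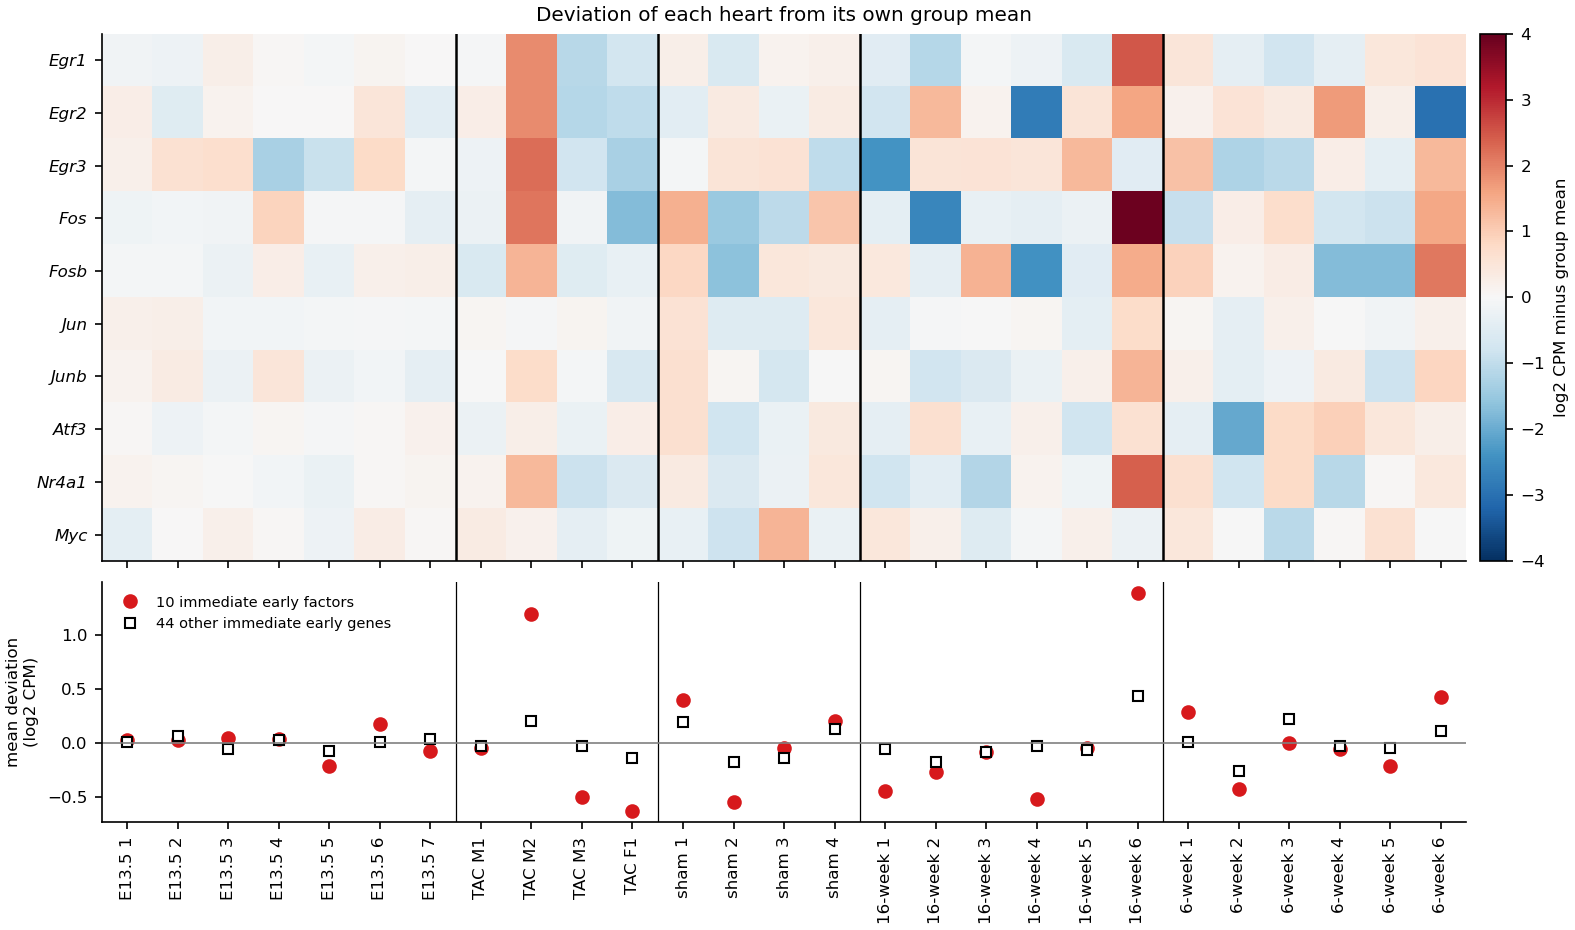
Top, deviation of log2 CPM from the mean of the heart's own group (colour, log2 scale) for the 10 factors (rows) in 27 hearts (columns); bottom, the mean of these deviations over the 10 factors (red circles) and over 44 other immediate early genes (open squares), in log2 CPM. TAC M2 (1.19) and 16-week heart 6 (1.39) stand above their groups over most factors, and no E13.5 heart lies further than 0.22 from its group mean.

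Over all 27 hearts, the coding genes whose within-group deviations were most like the mean of the factors were Btg2 (root mean square distance 0.564), Dusp1 (0.634), Klf2 (0.666), Tob2 (0.687), Adamts1 (0.694), Nr1h2 (0.699), Sik1 (0.703), Ier2 (0.708), Chka (0.708) and Nfkbib (0.710). Deviations were scaled to unit SD, and the median distance was 1.12 over 9890 coding genes with a mean of at least 5 CPM. Of these 10 genes, 5 (Btg2, Dusp1, Klf2, Sik1 and Ier2) were on the list of other immediate early genes. Among the factors themselves, Egr1 (0.614), Nr4a1 (0.647), Fos (0.708), Junb (0.757) and Jun (0.837) lay closest to the mean of the others, and Egr3 (1.03), Egr2 (1.07) and Myc (1.21) farthest. These are descriptions over libraries in which M2 and 16-week heart 6 carry much of the deviation.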

How the data were processed

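The deposited values are raw counts per feature on mm9 (NCBIM37); the submitters' processing notes name Bowtie, TopHat 1.3.0 and HTSeq for the authors' work, and DESeq and edgeR without a role. The counting mode is not given in the sources used here. Libraries were oligo(dT)-selected, single-end and without strand, per the labels, and each replicate is another heart. Levels are CPM with TMM factors over all 27 libraries (prior count 1 on the log2 scale), and CPM per kb divides by exonic bases outside other features. Comparisons used edgeR 4.0.16 in R 4.3.3 (robust quasi-likelihood test, TMM within the comparison, minimum count 10 and total 15), with Benjamini-Hochberg adjustment over all tested features. SE is the absolute log2 fold change over the root of F. E13.5 and sham hearts were each set against the mean of the unoperated ages, so these comparisons share libraries, as those with sham hearts do. Alternatives were DESeq2 1.42.0, limma-voom (limma 3.58.1), other scalings and filters, 1 fit of all libraries, a replicate block, other adult references and libraries left out; list counts without TAC M2 or 16-week heart 6 were added after seeing the data. The members and lists were chosen with earlier results of these data known. Named genes were all members, at most 4 called genes per list and comparison by adjusted p, some set relatives and the 10 most alike genes; 1 gene that met this rule is not reported here. Scripts were tested on simulated data. Low counts limit the precision of Egr2 and Egr3 in sham hearts.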

Additional observations from a re-analysis of the deposited data

Results flagged for a closer look

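For 12 of 50 combinations of factor and group, 1 heart lay further from the others than Dixon's 95% criterion allows. The rate of about 1 in 20 by chance holds for independent, normally distributed values. It does not apply here, since the values are CPM without a log and the factors deviate together in single hearts. The 12 combinations are therefore not separate findings. TAC M2 accounts for 4 of them, 16-week heart 6 for 5, and E13.5 heart 4, sham 2 and sham 3 for 1 each. In TAC hearts, M2 was the highest for Egr1 (842 CPM, the others 104 to 219), Egr3 (17.0 CPM, the others 1.32 to 3.002), Fos (90.1 CPM, the others 5.99 to 18.5) and Fosb (6.36 CPM, the others 1.501 to 1.92). At 16 weeks, heart 6 was the highest for Egr1 (248 CPM, the others 20.2 to 42.4), Fos (55.8 CPM, the others 0.459 to 2.96), Jun (187 CPM, the others 84.5 to 120), Junb (54.6 CPM, the others 12.4 to 24.5) and Nr4a1 (131 CPM, the others 10.8 to 27.1). E13.5 heart 4 was the highest for Fos (10.4 CPM, the others 4.23 to 5.35). Among sham hearts, sham 2 was the lowest for Egr1 (53.5 CPM, the others 90.2 to 96.9) and sham 3 the highest for Myc (21.3 CPM, the others 4.59 to 6.79).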

How the results depend on the processing

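The number of called factors moved with the settings. In TAC against sham it was 4, and 8 by limma-voom and 7 with all 27 libraries in 1 fit; leaving out each heart in turn gave 1 to 5. In E13.5 against unoperated hearts it was 3, and 6 without the libraries against their sex label, against sham hearts or against 6-week hearts, and 3 to 6 leaving out each heart. In 16 against 6 weeks it was 0, 1 without a filter (Jun) and 0 leaving out each heart. In sham against unoperated hearts it was 1, and 2 by limma-voom, 3 without a filter, 3 with all 27 libraries, 5 without the libraries against their sex label, 3 against 6-week hearts and 0 against 16-week hearts, and 0 to 3 leaving out each heart. With a replicate block the counts were 3 in TAC against sham, 3 in E13.5, 1 (Junb) in the age comparison and 2 in sham against unoperated hearts; the replicate numbers do not pair the hearts, since correlations of equally numbered hearts ran from -0.05 to 0.02 in TAC against sham and from -0.05 to 0.16 in the age comparison. Directions turned as follows (log2 scale), and the cause was not tested. At E13.5, Egr1 was 0.0029 with RLE scaling, 0.086 with upper-quartile scaling (which shifts the median of all features by 0.12), 0.014 by DESeq2, 0.29 by limma-voom, 0.14 without a filter, 0.24 with the replicate block, 0.63 without libraries against their sex label, 0.71 against 6-week hearts and -0.13 to 0.51 leaving out each heart. Fos was -1.61 against sham hearts, -1.22 against 16-week hearts and -0.069 to 1.27 leaving out each heart. Nr4a1 was -0.065 against sham and -0.48 against 16-week hearts, and Jun 0.013 against 6-week hearts. In TAC against sham, leaving out each heart gave -0.40 to 0.63 for Fosb and -0.22 to 1.47 for Fos. In sham against unoperated hearts, Junb was 0.044 by limma-voom, 0.065 without a filter, 0.015 with all 27 libraries, 0.28 with the replicate block, 0.63 without libraries against their sex label, 0.53 against 6-week hearts and -0.27 to 0.18 leaving out each heart. Jun was 0.39 without libraries against their sex label, 0.084 against 6-week hearts and -0.33 to 0.038 leaving out each heart, and Nr4a1 -0.50 against 16-week hearts.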
